A study of Homo sapiens with 12 samples.

Results

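The effect of sorafenib on gene expression was measured over 2 drug backgrounds at once in HDLM-2, an established human cell line of classical Hodgkin lymphoma. All 12 arrays of the series entered the comparison, 6 from cells that had received sorafenib and 6 from cells that had not. Arrays were assigned by the treatment named in their titles, and no measured value was used to choose them. The 6 arrays without sorafenib were 3 of untreated cells (control) and 3 of cells given 10 µM perifosine. The 6 arrays with sorafenib were 3 of cells given 5 µM sorafenib alone and 3 of cells given 5 µM sorafenib together with 10 µM perifosine (combination). All groups were collected at 24 h, and the replicates of each group carry the letters A, B and C. The groups share 1 cell line. The labels do not state whether the replicates were grown apart, so a p-value here describes only the variation among these arrays, which may be technical.

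Sorafenib is a kinase inhibitor. It blocks the RAF kinases, which pass growth signals on to MEK and ERK, and receptor kinases such as those for VEGF and PDGF. ERK signalling switches on immediate-early transcription factor genes such as FOS and EGR1, and also phosphatases that restrain ERK itself. In the integrated stress response, a brake on translation initiation favours translation of the transcription factor ATF4, which raises genes that make, import and charge amino acids. Perifosine is an alkylphospholipid that keeps the kinase AKT away from the membrane.

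Each array gave a signal for 48803 probes, of which 21925 to 22018 lay above a background threshold of about 225, and 13595 genes were bright enough to be tested. Markers of Hodgkin cells were present on all 12 arrays. In the 6 arrays without sorafenib, the log2 signal was 14.58 ± 0.18 (SD, n = 6) for the chemokine gene CCL17, 13.94 ± 0.15 for FSCN1, 11.83 ± 0.16 for FUT4, 10.51 ± 0.21 for TRAF1 and 8.59 ± 0.21 for TNFRSF8, which encodes CD30. IL13 was not among the genes tested. Genes of the T cell receptor complex were near background, with mean log2 signals between 6.51 and 6.76 for CD3D, CD3E and CD3G. CD2 and PRF1, also T and NK cell markers, were bright, with mean log2 signals of 13.71 and 13.61. A pair of arrays stood apart from the rest. Perifosine replicate B and sorafenib replicate C had residual SDs of 0.222 and 0.211 on the log2 scale, against 0.151 to 0.181 on the other 10 arrays, and their deviations from their group means correlated at 0.388 across genes, which are not independent replicates. Counts are therefore also given without both arrays. The sources used here name no batch, slide or scan.

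Sorafenib changed 510 of the 13595 genes over both backgrounds (3.75%), 353 higher (2.6%) and 157 lower (1.15%). A gene was called when its adjusted p, from limma with perifosine as a term and Benjamini-Hochberg adjustment over all genes, was under 0.05. PSAT1, an enzyme of serine synthesis, rose with the smallest adjusted p of all genes. The largest falls were those of MIR503HG and a cluster of keratin-associated protein genes. Most changes were small. Only 9 genes changed at least 2-fold, 5 of them higher and 4 lower, 87 changed at least 1.5-fold, and 423 were called below 1.5-fold. The median absolute log2 change of the called genes was 0.43, a 1.34-fold change, and the smallest was 0.25. The signal of a bulk sample cannot tell fewer expressing cells from less RNA per cell. The median log2 change over all genes was -0.0033, and 50.9% of genes were lower.

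The arrays themselves separated for many of these genes. For 382 of the 510 called genes the 6 arrays with sorafenib did not overlap the 6 without, as was the case for 539 of all 13595 genes (3.96%). The count of calls was 520 without the pair of arrays that stood apart, and 376 of the 510 genes were among them. When 1 array was left out, the count moved by over 1.5 times without control replicate A (300), control replicate B (304), perifosine replicate C (322), sorafenib replicate A (281), sorafenib replicate B (313), combination replicate A (332) and combination replicate C (324), and it was 689 without perifosine replicate B. The calls of 240 genes held in all 12 of these left-out fits, and 509 of the 510 genes kept their direction under every setting tried.

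**Figure D1:**
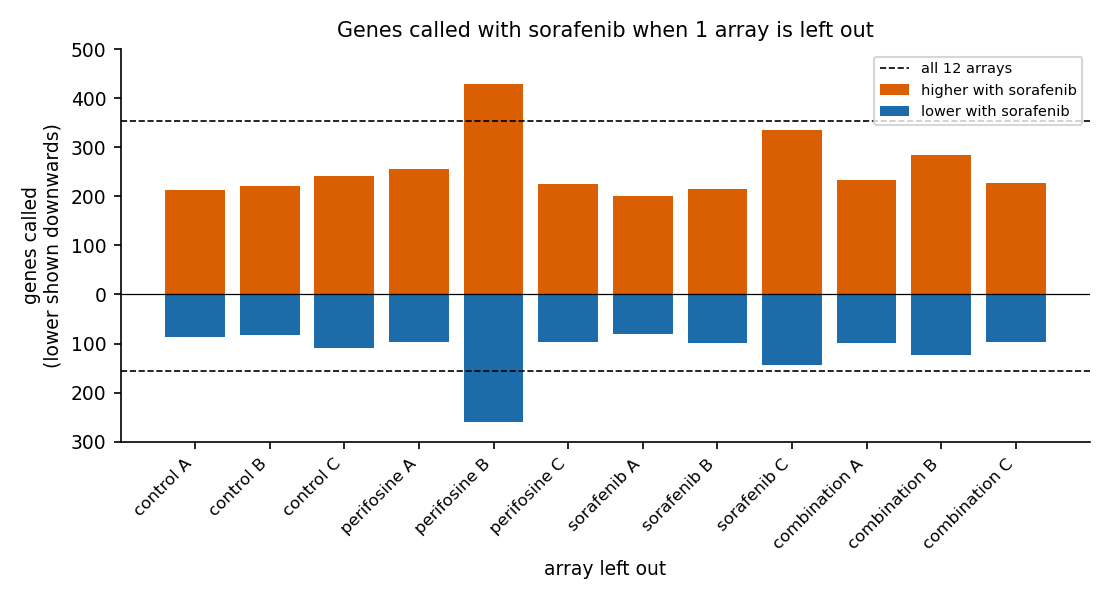
Number of genes called higher (above the line) and lower (below the line) with sorafenib when each of the 12 arrays was left out in turn. The dashed lines mark the 353 higher and 157 lower calls of all 12 arrays, and leaving out perifosine replicate B was the 1 case with more calls in both directions.

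The 6 against 6 comparison was more precise than the smaller comparisons inside the same design. Sorafenib against control and the combination against perifosine are both comparisons of 3 against 3 arrays, and they share no array, although they share 1 estimate of the spread. The first called 112 genes (0.824%), 75 higher and 37 lower, and the second called 97 (0.713%), 75 higher and 22 lower. Without the pair of arrays that stood apart they called 78 and 79. The median standard error of a log2 change was 0.144 with 3 against 3 arrays and 0.104 with 6 against 6. The smallest absolute log2 change that was called fell from 0.51 and 0.46 in the smaller comparisons to 0.25 in the larger one. Of the calls, 49 were shared by both smaller comparisons, which is 43.8% of the first list and 50.5% of the second.

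Because the smaller comparisons use different arrays, genes called in one could be looked up in the other. Of the 112 genes called with sorafenib alone, 107 had the same sign with the combination against perifosine, and 84 of them also had an unadjusted p under 0.05 there, as did 9.78% of all genes. Their median change, taken in the direction of the call, was 0.70 in the comparison that chose them and 0.48 in the other. Of the 97 genes called with the combination against perifosine, 93 had the same sign with sorafenib against control, and 86 also had an unadjusted p under 0.05, as did 10.9% of all genes. Their median change was 0.69 in the comparison that chose them and 0.57 in the other. Over all 13595 genes, 56.8% had the same sign in both.

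**Figure D2:**
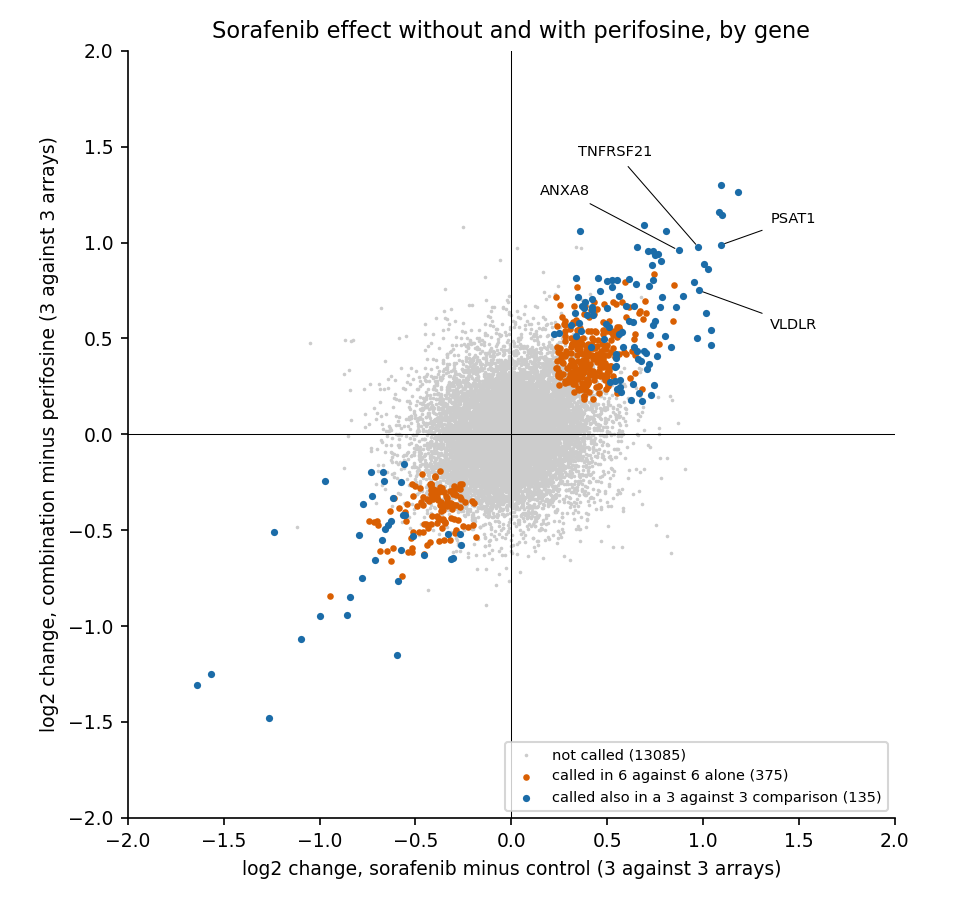
Log2 change with sorafenib in cells without perifosine (x axis, sorafenib minus control) and with perifosine (y axis, combination minus perifosine), 1 point per gene. The 375 genes called in 6 against 6 arrays alone lie in a pair of clouds nearer to 0 than most of the 135 genes called also in a smaller comparison.

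Of the 510 genes, 375 were called in neither of the smaller comparisons (2.76% of the genes tested and 73.5% of the calls), 254 higher and 121 lower. Without the pair of arrays that stood apart, 246 of the 375 were still called in the comparison of all remaining arrays. Their folds ran from 1.19 to 1.86 with a median of 1.31, and 353 of them, 239 higher and 114 lower, stayed below 1.5-fold and are called moderate here. The 135 genes also called in a smaller comparison, 99 higher and 36 lower, had a median change of 1.49-fold. Of the 375 genes, 323 had an unadjusted p under 0.05 in both smaller comparisons and 52 in one of them. Both smaller comparisons are part of the larger one, so their equal direction is fixed by the choice. Among the 353 moderate genes, 332 were above background on all 12 arrays, and in 244 the arrays of the arms did not overlap.

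Moderate changes were more exposed to the choice of arrays than the others. Calls held in all 12 fits that left out 1 array for 101 of the 353 moderate genes and for 121 of the 135 genes called also in a smaller comparison. A fresh count of such genes was 418 without the pair of arrays that stood apart. It was 193 without sorafenib replicate A, 220 without control replicate A, 222 without control replicate B, 225 without perifosine replicate C, 236 without sorafenib replicate B, 242 without combination replicate A and also without combination replicate C, and 528 without perifosine replicate B. Without background correction it was 442, 254 higher and 188 lower, so that 57.5% were higher in place of 67.7%. The median log2 signal without sorafenib was 9.79 for the moderate genes that rose and 10.54 for those that fell, against 9.21 for all genes tested.

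**Figure D3:**
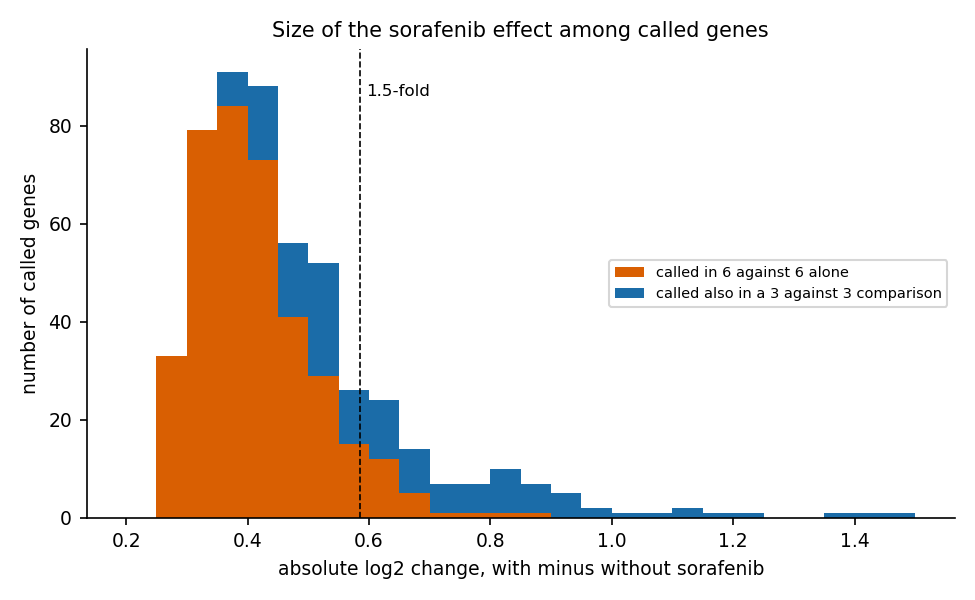
Number of called genes by absolute log2 change with sorafenib, in bins of equal width, with genes called in 6 against 6 arrays alone in orange and genes called also in a smaller comparison stacked above them in blue. Most genes left of the dashed line at 1.5-fold were called in 6 against 6 arrays alone, and those right of it mostly in a smaller comparison too.

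The 12 moderate rises with the smallest p-values included a transporter, a mitochondrial enzyme, catalase and a sensor of viral RNA. ABCA13, a transporter of the ATP-binding cassette family, had log2 signals of 10.28, 10.52 and 10.59 (lowest, median and highest) on the 6 arrays without sorafenib and of 10.91, 11.01 and 11.17 on the 6 with it. Its arms did not overlap, and it rose by 0.53 ± 0.08 (SE, adjusted p = 0.0020), while the smaller comparisons each gave 0.53 ± 0.12 (adjusted p = 0.0527 and 0.0622). SIRT5, a mitochondrial enzyme that removes acyl groups from lysines, lay at 9.46, 9.63 and 9.79 without and at 10.00, 10.10 and 10.28 with sorafenib. It rose by 0.50 ± 0.08 (adjusted p = 0.0036), but its other passing probes had changes of 0.19, 0.23 and 0.07, and with the mean of all its probes the adjusted p was 0.0724. CAT encodes catalase, which breaks down hydrogen peroxide. Its log2 signal was 11.91, 12.23 and 12.32 without and 12.55, 12.77 and 12.86 with sorafenib, a rise of 0.53 ± 0.09 (adjusted p = 0.0043), and a second probe had a change of 0.52. Control replicate B was the low array of its arm.

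RIGI, the cytosolic sensor of viral RNA, had narrow arms at 9.24, 9.34 and 9.52 without and 9.74, 9.77 and 9.85 with sorafenib. It rose by 0.44 ± 0.07 (adjusted p = 0.0047). APOBEC3H, an antiviral cytidine deaminase, was dim, at 6.69, 6.90 and 7.11 without and 7.02, 7.47 and 7.63 with sorafenib, and combination replicate B reached into the range of the arm without sorafenib. Its change of 0.52 ± 0.09 (adjusted p = 0.0061) was 0.28 without background correction. AGT, the precursor of angiotensin, rose by 0.53 ± 0.08 (adjusted p = 0.0030), from 10.46, 10.65 and 10.76 to 10.94, 11.19 and 11.34, with no overlap between the arms. The other 6 of these 12 genes rose by 0.44 to 0.57. They were SPAG6, a protein of the sperm flagellum (0.53), YPEL1, of the yippee-like family (0.57), NREP, a neuronal regeneration protein (0.47), NMT2, which attaches myristate to proteins (0.47), RABAC1, a binding partner of Rab GTPases (0.46), and SPARCL1, a secreted matrix glycoprotein (0.44).

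Of the 12 moderate falls with the smallest p-values, PSMB2, PIM2 and GAS1 were among the brightest transcripts. PSMB2, a subunit of the proteasome core, had log2 signals of 14.17, 14.31 and 14.44 without and 13.88, 13.95 and 13.98 with sorafenib, and fell by 0.37 ± 0.07 (adjusted p = 0.0082). This change of 1.30-fold was the smallest among the 24 genes named here. PIM2, a kinase that supports survival of lymphoid cells, lay at 14.56, 14.77 and 15.01 without and at 14.19, 14.28 and 14.47 with sorafenib, and fell by 0.46 ± 0.09 (adjusted p = 0.0112). GAS1, a membrane protein linked to growth arrest, had signals of 14.42, 14.70 and 14.89 without and 14.03, 14.12 and 14.38 with sorafenib. It fell by 0.49 ± 0.09 (adjusted p = 0.0083), and a second probe gave a change of -0.40. In all 3 of these genes the arms were separate, by a small margin in GAS1.

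ANKRD37, a gene that responds to hypoxia, had the smallest p among the falls. It fell by 0.48 ± 0.08 (adjusted p = 0.0030), from 11.35, 11.55 and 11.68 to 10.94, 11.10 and 11.19. CCT4, a subunit of the chaperonin that folds actin and tubulin, fell by 0.43 ± 0.08 (adjusted p = 0.0118), from 9.97, 10.04 and 10.27 to 9.45, 9.69 and 9.77, with combination replicate A below the rest of its arm. DLEU1, a long non-coding RNA, fell by 0.54 ± 0.11 (adjusted p = 0.0132), and a second probe gave a change of -0.49. RPL29, a protein of the large ribosomal subunit, fell by 0.58 ± 0.11 (adjusted p = 0.0087), with a change of -0.61 for its other probe, but the gene has near-identical copies that the probes may share. The calls of ETV5, NTMT1 and ALG13 depended on the probe. ETV5, an ETS transcription factor, had changes of -0.58 and -0.04, NTMT1, which methylates protein N termini, of -0.51 and -0.09, and ALG13, of N-glycan synthesis, of -0.41, 0.25 and -0.18, and none of the 3 was called with the mean of all probes (adjusted p = 0.0586, 0.0508 and 0.429). H3C7, a replication-type histone H3 gene with near-identical copies, fell by 0.58 ± 0.11 (adjusted p = 0.0076). LOXHD1, a protein of inner ear hair cells, was above background on 1 of 6 arrays with sorafenib, and its change of -0.44 was -0.21 without background correction.

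Across these 24 moderate genes the arms did not overlap in 23, and all 24 calls held whichever array was left out, which the choice by smallest p favours. Over all 353 moderate genes the arms did not overlap in 244 and the calls of 101 held, and the arms did not overlap in 3.96% of all genes. Their adjusted p-values in the smaller comparisons lay between 0.050 and 0.210, which is above the threshold in every case. The standard errors of the 24 changes ran from 0.07 to 0.11.

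**Figure D4:**
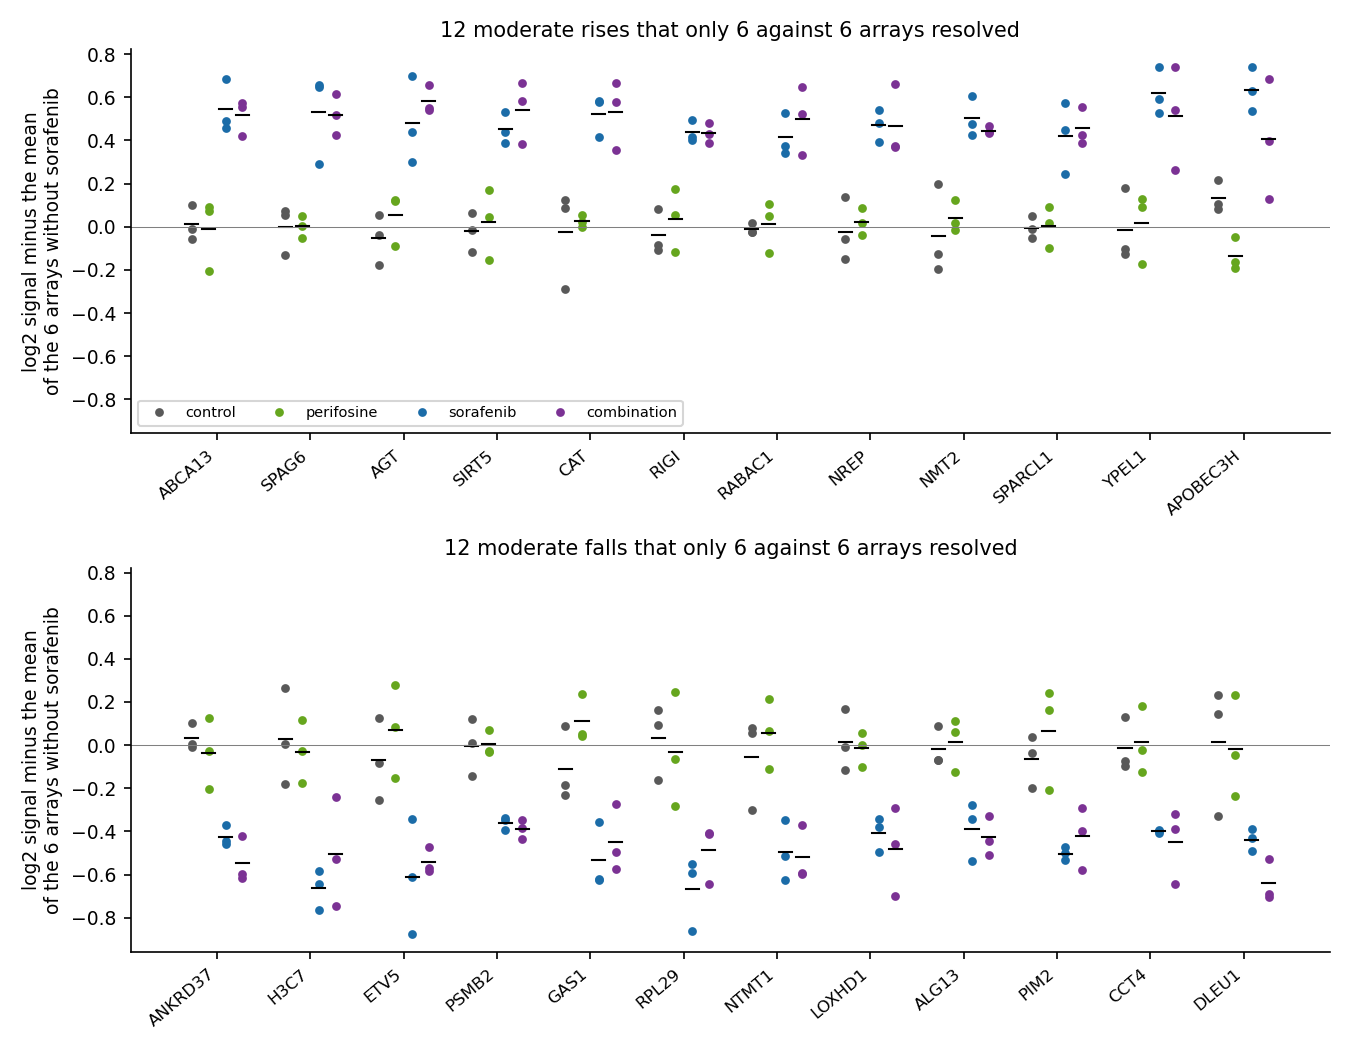
Log2 signal of the 12 moderate rises (upper panel) and 12 moderate falls (lower panel) on each of the 12 arrays, relative to the mean of the 6 arrays without sorafenib. Dots are arrays, short black lines are group means, and the blue and purple dots (sorafenib and combination) clear the grey and green ones (control and perifosine) in all genes but APOBEC3H.

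The 4 genes given as markers of this comparison rose in both backgrounds and were called in both smaller comparisons as well. PSAT1 had log2 signals of 11.90, 11.88 and 11.91 in the control, 12.05, 12.06 and 12.10 with perifosine, 12.98, 12.89 and 13.09 with sorafenib and 13.10, 12.97 and 13.09 with the combination. The arrays with sorafenib stood clear of the others, and the rise of 1.04 ± 0.07 had the smallest adjusted p of all genes (4.53e-06). TNFRSF21, a death-domain receptor of the TNF receptor family, had signals of 7.66, 8.01 and 7.73 in the control, 7.86, 7.97 and 7.64 with perifosine, 8.81, 8.80 and 8.72 with sorafenib and 8.74, 8.88 and 8.78 with the combination. Its rise of 0.98 ± 0.08 (adjusted p = 3.16e-05) was nearly equal without and with perifosine, at 0.98 and 0.97. VLDLR, a lipoprotein receptor, rose by 0.86 ± 0.08 and ANXA8, a phospholipid-binding annexin, by 0.92 ± 0.09 (both adjusted p = 4.48e-05). A second probe of ANXA8 had a change of 0.20, and a near-identical copy of this gene may share the signal.

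Among called genes, the rises larger than that of PSAT1 were those of ASS1, CYP4Z1, C4BPB and INHBE. ASS1, which makes argininosuccinate, rose by 1.22 ± 0.14 (adjusted p = 0.00030) and CYP4Z1, a cytochrome P450, by 1.20 ± 0.11 (adjusted p = 4.48e-05). C4BPB, which encodes part of a complement inhibitor, rose by 1.12 ± 0.13 (adjusted p = 0.00028) and INHBE, an activin subunit, by 1.12 ± 0.14 (adjusted p = 0.00054). Without background correction the changes of ASS1, CYP4Z1, C4BPB and INHBE were 0.86, 0.85, 0.975 and 0.96, each below the 1.02 of PSAT1. A second probe of ASS1 gave 0.85, and the other probes of CYP4Z1 gave 0.79, 0.89 and 0.47. A second probe of C4BPB gave 0.25. Of the falls, MIR503HG, the host transcript of a microRNA, fell by 1.47 ± 0.17 (adjusted p = 0.00030), from 11.24, 11.96 and 12.22 to 10.05, 10.34 and 10.70. KRTAP9-3, KRTAP9-4, KRTAP9-8 and KRTAP1-5 encode keratin-associated proteins on chromosome 17. They fell by 1.41 ± 0.13, 1.37 ± 0.10, 1.08 ± 0.08 and 0.97 ± 0.13, with adjusted p-values between 1.08e-05 and 0.00065. Which of the near-identical KRTAP9 genes fell is uncertain. Without background correction the changes of KRTAP9-3, KRTAP9-8 and KRTAP1-5 were -0.94, -0.66 and -0.48. KRTAP1-5 was above background on 1 of 6 arrays with sorafenib.

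Genes of the amino acid response rose in part. Among 26 tested targets of ATF4 and CHOP, 8 rose and 0 fell, with 23 of 26 values above 0 and a median of 0.24, against a median of -0.0033 and 2.6% of genes called higher among all genes. Of the 8, 5 were called only with 6 against 6 arrays. They were ATF4 itself, its dimer partner CEBPG, DDIT3, ATF5 and CHAC1. The rest of the 8 were INHBE, ULBP1 and VLDLR. VLDLR is a marker given for this comparison, and the lists were chosen with earlier results of these data known. The share called is therefore no independent support. ATF4 had log2 signals of 14.92, 15.06 and 15.24 without and 15.38, 15.45 and 15.52 with sorafenib, and rose by 0.37 ± 0.08 (adjusted p = 0.0178). The arms did not overlap, and the other probes of ATF4 had changes of 0.38 and -0.17, with an adjusted p of 0.224 for the mean of all. CEBPG rose by 0.43 ± 0.08 (adjusted p = 0.0066), from 13.08, 13.18 and 13.43 to 13.54, 13.66 and 13.71. DDIT3, which encodes the stress transcription factor CHOP, lay at 8.74, 8.87 and 8.95 without and at 9.12, 9.40 and 9.55 with sorafenib, a rise of 0.49 ± 0.09 (adjusted p = 0.0093). Its values in the smaller comparisons were 0.53 and 0.45, neither of which was called.

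ATF5, a relative of ATF4, rose by 0.55 ± 0.13 (adjusted p = 0.031), and CHAC1, which degrades glutathione, by 0.56 ± 0.14 (adjusted p = 0.043). These calls held in 6 and 5 of the 12 fits that left out 1 array. ULBP1, a ligand of the natural killer cell receptor NKG2D, rose by 0.84 ± 0.08 (adjusted p = 6.55e-05), from 9.56, 9.73 and 9.88 to 10.32, 10.58 and 10.78. TRIB3, a pseudokinase and CHOP target, was not called. Its change was 0.31 ± 0.13 (adjusted p = 0.24), made of 0.00 without and 0.62 with perifosine, and its lowest array was perifosine replicate B at 8.88. ATF3, a stress transcription factor, had a change of 0.24 ± 0.08 (adjusted p = 0.14).

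Of 10 tested enzymes of serine, glycine and folate metabolism, 4 rose and 0 fell, against 2.6% of all genes called higher, with a median of 0.19. PSAT1, a marker given for this comparison, was 1 of the 4, so its rise was known beforehand. Also called were PSPH, the last enzyme of serine synthesis (0.54 ± 0.09, adjusted p = 0.0040), and GLDC, which cleaves glycine (0.56 ± 0.09, adjusted p = 0.0039). MTHFD2, of the mitochondrial folate cycle, rose by 0.39 ± 0.08 (adjusted p = 0.0178). SHMT2, the mitochondrial serine hydroxymethyltransferase, had a change of 0.26 ± 0.09 that did not pass (adjusted p = 0.13). Of 13 amino acid synthesis enzymes, 3 rose and 0 fell, against the same 2.6%, with a median of 0.11. ASNS, the asparagine synthetase gene, rose by 0.87 ± 0.08 (adjusted p = 4.48e-05), from 13.27, 13.47 and 13.69 to 14.22, 14.40 and 14.46. CTH, which makes cysteine, rose by 0.79 ± 0.11 (adjusted p = 0.0010), with values of 1.04 without and 0.54 with perifosine, a difference that did not pass the adjusted threshold.

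Few genes for transport and charging of amino acids were called. Of 14 amino acid transporters, 2 rose and 0 fell, against 2.6% of all genes called higher, with a median of 0.18 and 3 members below 0. SLC1A5, a glutamine carrier, rose by 0.44 ± 0.10 (adjusted p = 0.028) and SLC38A2, a neutral amino acid carrier, by 0.38 ± 0.10 (adjusted p = 0.0485), and their calls were lost in 6 and 11 of the 12 left-out fits, with adjusted p-values of at most 0.0684 and 0.108. The arms of SLC38A2 overlapped. Of 18 cytosolic aminoacyl-tRNA synthetases, which load amino acids onto tRNA, 3 rose and 0 fell, with a median of 0.11 and 5 members below 0, and all 3 were called only with 6 against 6 arrays. AARS1, for alanine, rose by 0.40 ± 0.07 (adjusted p = 0.0065), from 12.85, 12.95 and 13.08 to 13.14, 13.42 and 13.52. GARS1, for glycine, rose by 0.38 ± 0.07 (adjusted p = 0.0105), and WARS1, for tryptophan, by 0.39 ± 0.09 (adjusted p = 0.026), a call lost in 5 of the 12 left-out fits (adjusted p at most 0.0600). The lowest members, VARS1, for valine, and FARSA, for phenylalanine, had changes of -0.34 and -0.28 that did not pass.

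ATF4 binds a composite element with C/EBP proteins, so the promoters of these genes were read for it. RefSeq (GRCh38.p14) gave a promoter of 250 bases before and 50 after the start site for 10979 of the 13595 genes. The letters TGATGNAA, on either strand, occurred in 2.19% of these promoters, in 4.84% of those of genes called higher (14 of 289) and in 0 of 126 of genes called lower. In the amino acid and ATF4 lists together they occurred in 3 of 18 promoters of called genes and in 12 of 47 of genes not called, so within these lists the share was no higher among called genes. A match is a description of the letters and no proof of a site. The 250 bases before the start site of the 3 called genes with a match are printed here, 5′ to 3′ on the strand of the gene, with the match in capitals. They are ASNS (chr7:97872409-97872658, minus strand), AARS1 (chr16:70289507-70289756, minus strand) and CHAC1 (chr15:40953221-40953470, plus strand).
ASNS: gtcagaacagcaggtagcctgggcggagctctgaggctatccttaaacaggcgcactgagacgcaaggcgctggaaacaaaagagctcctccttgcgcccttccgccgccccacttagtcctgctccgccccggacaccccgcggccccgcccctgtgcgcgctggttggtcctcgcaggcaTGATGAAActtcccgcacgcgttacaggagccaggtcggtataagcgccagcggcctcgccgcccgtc
AARS1: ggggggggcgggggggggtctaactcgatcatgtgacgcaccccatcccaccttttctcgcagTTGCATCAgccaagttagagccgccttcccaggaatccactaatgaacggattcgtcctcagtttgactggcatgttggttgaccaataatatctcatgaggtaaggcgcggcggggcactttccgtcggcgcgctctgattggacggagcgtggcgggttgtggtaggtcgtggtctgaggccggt
CHAC1: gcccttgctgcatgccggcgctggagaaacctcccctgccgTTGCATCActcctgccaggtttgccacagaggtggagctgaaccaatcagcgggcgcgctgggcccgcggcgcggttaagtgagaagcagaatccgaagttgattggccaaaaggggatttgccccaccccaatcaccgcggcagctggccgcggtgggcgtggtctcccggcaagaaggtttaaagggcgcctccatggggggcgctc
The match begins at base -68 in ASNS, -187 in AARS1 and -209 in CHAC1, counted from the start site, and it reads on the gene's own strand in ASNS and on the opposite one in the others. The first of these genes rose by 0.87, and the others, called with 6 against 6 arrays alone, by 0.40 and 0.56.

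Some targets of the ERK pathway fell. Of 17 genes of MAPK pathway output, 5 fell, 0 rose and 12 did not pass, against 1.15% of all genes called lower. The median change of the list was -0.18, or -0.093 without background correction. This median was -0.24 for sorafenib against control and -0.025 for the combination against perifosine. FOS, an immediate-early transcription factor, had log2 signals of 7.49, 7.76 and 7.92 without and 6.67, 6.77 and 7.11 with sorafenib. It fell by 0.90 ± 0.10 (adjusted p = 0.00030). EGR1, another immediate-early factor, fell by 0.87 ± 0.16 (adjusted p = 0.0072), from 7.41, 7.73 and 8.04 to 6.24, 6.87 and 7.31. Both were above background on all 6 arrays without and on 4 of 6 with sorafenib, and without background correction their changes were -0.51 and -0.48. DUSP5, a phosphatase that acts on ERK in the nucleus, was bright, at 13.17, 13.32 and 13.47 without and 12.79, 12.91 and 12.97 with sorafenib, and fell by 0.42 ± 0.07 (adjusted p = 0.0045) with no overlap of the arms. FOSL1, a partner of JUN proteins, fell by 0.38 ± 0.09 (adjusted p = 0.035), a call that held in 4 of the 12 fits with 1 array left out, and ETV5 is described above. DUSP6, the cytosolic ERK phosphatase, had a change of -0.44 ± 0.16 (adjusted p = 0.16), and MYC one of 0.09 ± 0.09 (adjusted p = 0.69). JUN and JUND, partners of FOS that are outside this list, went the other way. They were called higher, with changes of 0.61 and 0.47, and both calls held in all 12 fits with 1 array left out.

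None of the 8 tested genes for kinases that sorafenib inhibits, or that act below them, was called, and the changes of the 7 measured in both arms lay between -0.17 for ARAF and 0.18 for MAPK3, which encodes ERK1. RET was above background on 0 of 6 arrays without and 3 of 6 with sorafenib, so its change is uncertain. With the arrays without sorafenib set to the lowest signal above background, its mean with sorafenib was 1.02-fold higher. That mean includes arrays below background, so it is no lower bound. RET was not called, and its arms overlapped, at 6.19 to 6.69 without and 6.23 to 7.17 with sorafenib. Its other probe had a change of -0.05. BRAF, KDR and PDGFRB had no probe bright enough to be tested, and neither had CCND1, a cyclin gene driven by ERK. None of the 16 genes of the PI3K, AKT and mTOR pathway was called.

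Histone genes were the list with the lowest median. All 15 tested members of this list of replication-type histone genes had a negative value, as did 50.9% of all genes, with a median of -0.34. Of the 15, 6 fell and 9 did not pass, against 1.15% of all genes called lower. H1-2, a linker histone, had log2 signals of 10.18, 10.61 and 10.82 without and 9.35, 9.71 and 10.00 with sorafenib, and fell by 0.87 ± 0.14 (adjusted p = 0.0032). Its change was -1.24 without and -0.51 with perifosine, and no interaction was called. H4C8, a histone H4 gene, fell by 0.59 ± 0.08 (adjusted p = 0.00083), from 8.80, 8.98 and 9.06 to 8.28, 8.33 and 8.50, and H2BC21, a histone H2B gene, by 0.60 ± 0.10 (adjusted p = 0.0030). H2AC6 fell by 0.35 and H4C3 by 0.47, with calls that held in 10 and 2 of the 12 fits with 1 array left out. H4C3 was the brightest, at 15.57, 15.76 and 15.83 without and 14.76, 15.30 and 15.60 with sorafenib. H1-3, a linker histone, was above background on 4 of 6 arrays without and 0 of 6 with sorafenib, so the size of its change is uncertain. With the arrays with sorafenib set to the lowest signal above background, it was 1.03-fold lower. The mean without sorafenib includes arrays below background. H1-3 was called lower (adjusted p = 0.040), a call that held in 3 of the 12 fits. The list does not hold all histone genes. Also called lower were H3C7, described above, H3C10 (-0.64), H2AC18 (-0.61) and H2AC20 (-0.56). So were H3C8 (-0.50), H2AC11 (-0.50), H3C13 (-0.39) and H4C12 (-0.39), but these calls did not hold in all 12 fits. Histone genes have near-identical copies, so the member behind a probe is uncertain.

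Few genes of DNA replication and ribosome assembly fell. Of 32 DNA replication genes, 29 had a negative value with a median of -0.15, against 50.9% of all genes below 0. Of the 32, 1 fell, against 1.15% of all genes, which was RRM2, the regulated subunit of ribonucleotide reductase. It fell by 0.58 ± 0.09 (adjusted p = 0.0037), from 13.60, 13.74 and 14.03 to 13.02, 13.22 and 13.41. None of 22 mitosis genes was called (median -0.10). In the list of ribosome biogenesis and MYC targets, 21 of 23 genes lay below 0 with a median of -0.22, and 2 fell, against the same shares of 50.9% and 1.15% over all genes. NOP16, a nucleolar protein, fell by 0.48 ± 0.10 (adjusted p = 0.015), and NOLC1, a nucleolar chaperone, by 0.35 ± 0.08 (adjusted p = 0.030), whose call was lost in 7 of the 12 left-out fits, with an adjusted p of at most 0.0768.

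Of 19 heat shock proteins, 18 had a negative value with a median of -0.21, and 2 fell, against 50.9% and 1.15% of all genes. Both were called only with 6 against 6 arrays. HSP90AB1, the constitutive cytosolic HSP90, had log2 signals of 15.05, 15.15 and 15.26 without and 14.61, 14.78 and 14.90 with sorafenib. Its arms did not overlap, and it fell by 0.37 ± 0.08 (adjusted p = 0.0178). DNAJB1, a co-chaperone of HSP70, fell by 0.34 ± 0.08 (adjusted p = 0.037), a call lost in 9 of the 12 left-out fits, with an adjusted p of at most 0.0839. None of 19 ER chaperones and genes of the unfolded protein response was called, with a median of -0.10.

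Interferon-stimulated genes rose in part. Of 21 tested, 5 rose, 0 fell and 16 did not pass, against 2.6% of all genes called higher. The median was 0.14. The list is a chosen one, and RIGI, described above, was outside it. So was CXCL10, an interferon-induced chemokine gene, which was called lower with a change of -0.85. SAMD9 (-0.38) and HERC6 (0.39) were also called and outside the list. IFIT3, which binds foreign RNA together with its relatives, had log2 signals of 8.31, 8.62 and 8.84 without and 9.06, 9.25 and 9.44 with sorafenib, and rose by 0.68 ± 0.09 (adjusted p = 0.0011). Its other probes had changes of 0.55 and 0.12. ISG20 encodes an exonuclease that degrades viral RNA, and it rose by 0.60 ± 0.08 (adjusted p = 0.00092), from 11.38, 11.55 and 11.68 to 11.99, 12.13 and 12.37. In both genes the arms were separate. MX2, an antiviral GTPase, rose by 0.61 ± 0.12 (adjusted p = 0.0125) with overlapping arms, IFITM3, which blocks viral entry, by 0.36 ± 0.08 (adjusted p = 0.022), and OAS3, a sensor that makes oligoadenylates, by 0.45 ± 0.10 (adjusted p = 0.026). The calls of IFITM3 and OAS3 held in 9 and 5 of the 12 fits with 1 array left out, and a dim second probe of OAS3 had a change of 0.16. ISG15 and IFIT1, often among the strongest interferon responders, had changes of 0.12 and -0.14 that did not pass.

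The interferon response element was searched on both strands as GAAA, then 2 bases of any kind, then GAAA. These letters occurred in 3.13% of all 10979 promoters, in 5.19% of those of genes called higher and in 7.94% of those of genes called lower. Within the interferon list they occurred in the promoters of all 4 called genes that have one in the table and in 9 of 12 of genes not called, so the match was common in the list whether or not a gene was called. The 4 promoters are shown with the matches in capitals, 250 bases before the start site, 5′ to 3′ on the strand of the gene, because each holds a match. They are ISG20 (chr15:88638766-88639015, plus strand), IFIT3 (chr10:89327747-89327996, plus strand), IFITM3 (chr11:320861-321110, minus strand) and OAS3 (chr12:112938224-112938473, plus strand), all in GRCh38.p14.
ISG20: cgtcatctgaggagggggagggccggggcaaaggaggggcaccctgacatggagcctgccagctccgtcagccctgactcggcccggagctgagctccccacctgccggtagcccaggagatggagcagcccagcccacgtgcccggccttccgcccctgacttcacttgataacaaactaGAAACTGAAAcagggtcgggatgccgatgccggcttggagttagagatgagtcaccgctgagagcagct
IFIT3: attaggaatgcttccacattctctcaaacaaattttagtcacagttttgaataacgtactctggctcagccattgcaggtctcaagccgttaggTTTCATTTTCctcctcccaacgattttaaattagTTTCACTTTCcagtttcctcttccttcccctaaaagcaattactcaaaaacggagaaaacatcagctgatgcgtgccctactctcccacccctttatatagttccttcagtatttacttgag
IFITM3: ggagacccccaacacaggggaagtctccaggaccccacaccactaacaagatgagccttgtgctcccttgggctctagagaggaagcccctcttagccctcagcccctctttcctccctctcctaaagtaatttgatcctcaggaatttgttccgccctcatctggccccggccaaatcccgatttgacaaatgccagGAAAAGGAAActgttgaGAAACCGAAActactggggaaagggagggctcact
OAS3: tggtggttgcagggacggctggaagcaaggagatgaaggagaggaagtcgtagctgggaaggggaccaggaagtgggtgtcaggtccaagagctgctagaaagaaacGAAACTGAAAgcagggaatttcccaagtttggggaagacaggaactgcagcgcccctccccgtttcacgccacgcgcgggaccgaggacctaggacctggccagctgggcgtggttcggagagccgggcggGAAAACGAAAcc
ISG20 holds 1 match and each of the others 2, and those of IFIT3 read on the opposite strand. The matches lie between base -156 and base -12 from the start site.

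Molecules typical of Hodgkin cells moved in both directions. Of 20 tested chemokines, cytokines and surface molecules, 5 rose, 1 fell and 14 did not pass, against 2.6% of all genes higher and 1.15% lower, with a median of 0.17. CCL17, the chemokine that draws CCR4-bearing T cells, had log2 signals of 14.32, 14.60 and 14.87 without and 15.02, 15.09 and 15.28 with sorafenib, and rose by 0.54 ± 0.09 (adjusted p = 0.0046). TRAF1, an adaptor of TNF receptors, rose by 0.53 ± 0.10 (adjusted p = 0.0066), and a second probe had the same change of 0.53. FSCN1, which bundles actin, rose by 0.43 ± 0.09 (adjusted p = 0.0137) with separate arms. CD80, a ligand of CD28, rose by 0.34 ± 0.07 (adjusted p = 0.023) and LTA, the cytokine lymphotoxin alpha, by 0.41 ± 0.10 (adjusted p = 0.045), with calls that held in 7 and 3 of the 12 fits with 1 array left out. CD274, which encodes the checkpoint ligand PD-L1, fell by 0.36 ± 0.08 (adjusted p = 0.023), from 10.48, 10.78 and 10.83 to 10.26, 10.34 and 10.47, and this call held in 6 of the 12 fits. CCL22, the other ligand of CCR4, had a change of 0.50 ± 0.14 (adjusted p = 0.071), and TNFRSF8 one of -0.28 ± 0.11 (adjusted p = 0.21).

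Among 17 TNF receptors and ligands, 2 rose and 1 fell, against 2.6% and 1.15% of all genes. TNFRSF21, a marker given for this comparison, was 1 of those that rose. Besides TNFRSF21, TNFRSF9, the costimulatory receptor 4-1BB, rose by 0.47 ± 0.09 (adjusted p = 0.0102), from 11.39, 11.61 and 11.71 to 11.77, 12.09 and 12.17, with sorafenib replicate B the low array of its arm. TNFRSF10A, a receptor of the death ligand TRAIL, fell by 0.42 ± 0.08 (adjusted p = 0.0116). The list leaves out other genes of this family that were called higher. Among them were LTA, described above, and the ligand gene TNFSF13B (0.85), whose call held in all 12 left-out fits. In the BCL2 family and death genes, PMAIP1, the BH3-only protein NOXA, rose by 0.58 ± 0.12 (adjusted p = 0.0144), from 10.06, 10.34 and 10.41 to 10.53, 10.86 and 11.27, and a second probe had a change of 0.52. It was called with 6 against 6 arrays alone and was the 1 called gene of 17, beside 2.6% of all genes called higher. MCL1, an antiapoptotic member, had a change of -0.26 ± 0.08 (adjusted p = 0.110) and one of -0.54 for another probe. With the mean of all its probes MCL1 was called lower (adjusted p = 0.0129). CXCL8, the chemokine interleukin-8, was the 1 gene of 17 NF-kB subunits and targets to be called, beside 1.15% of all genes called lower. It was dim, with signals of 7.29, 7.32 and 7.62 without and 6.63, 6.82 and 7.20 with sorafenib. Its fall by 0.54 ± 0.08 (adjusted p = 0.0021) was a change of -0.29 without background correction. The list leaves out other genes linked to NF-kB that were called. Among them TRAF1, TNFRSF9 and VCAM1 (0.54) were higher, and BCL3 (-0.30), whose call held in 2 of the 12 left-out fits, was lower.

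**Figure D5:**
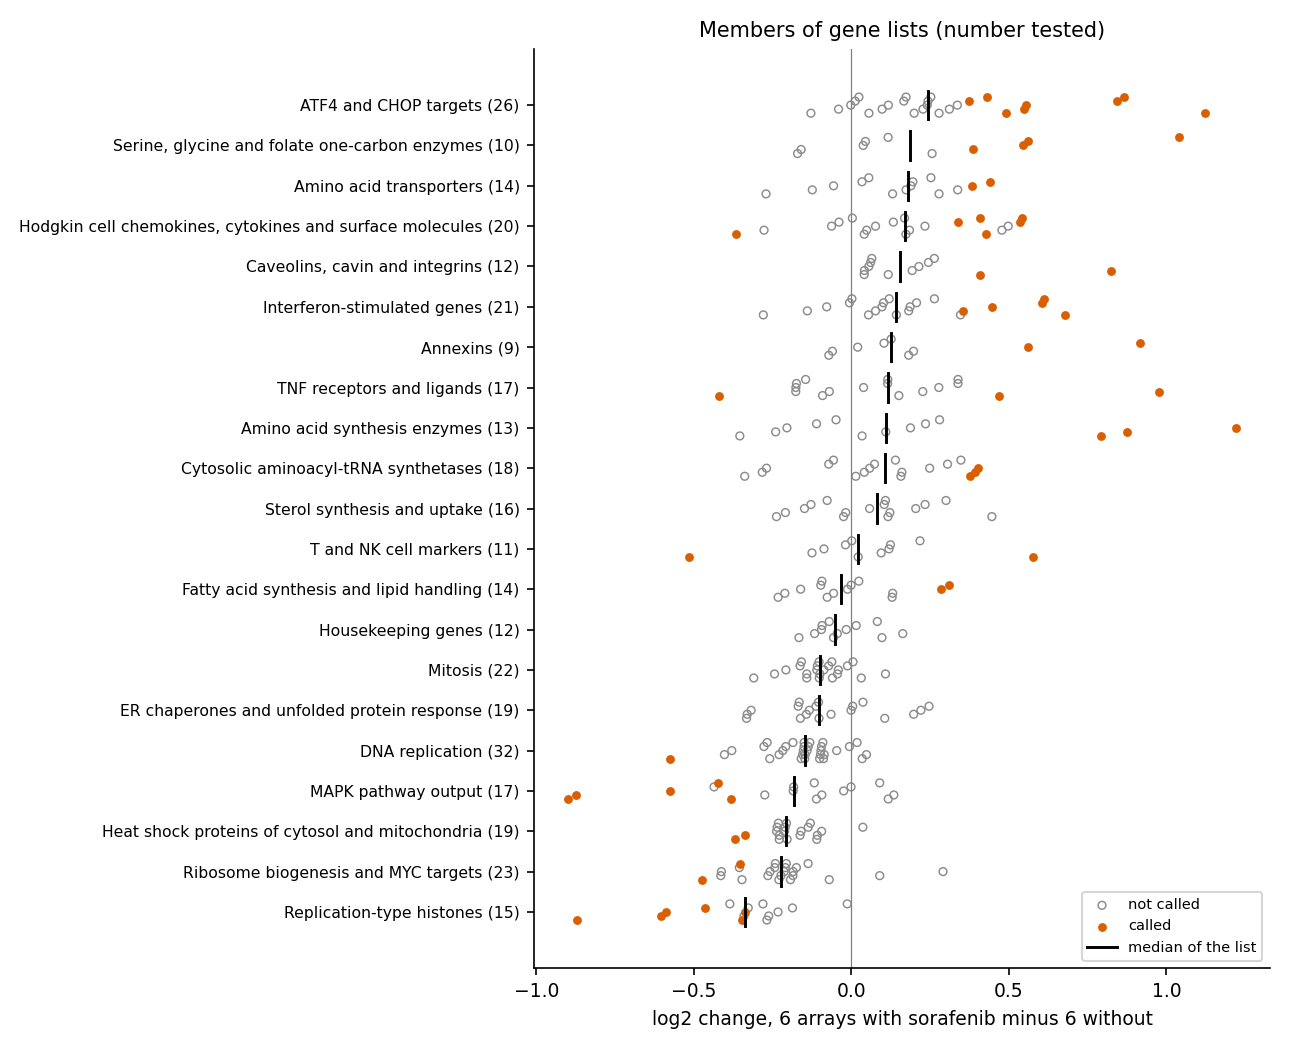
Log2 change with sorafenib (6 arrays with minus 6 without) of the tested members of 21 gene lists, 1 circle per gene, filled where called, with a bar at the median of the list. Histone and ribosome biogenesis genes lie at the lower end and ATF4 and CHOP targets at the upper end, and the housekeeping genes lie around 0 with none called.

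Other lists held 1 or 2 called genes, beside 2.6% of all genes called higher and 1.15% called lower. Called higher were 2 of 12 caveolin, cavin and integrin genes, 2 of 9 annexins and 2 of 14 genes of fatty acid synthesis and lipid handling. So were 1 of 12 CDK inhibitors and G1 cyclins and 1 of 6 metallothioneins, and 1 of 13 NRF2 antioxidant targets was called lower. ANXA8, a marker given for this comparison, was 1 of the annexins. CAV1, the coat protein of caveolae, rose by 0.82 ± 0.10 (adjusted p = 0.00040), from 10.93, 11.20 and 11.52 to 11.85, 12.11 and 12.16, and the integrin subunit gene ITGB7 by 0.41 ± 0.08 (adjusted p = 0.015). ANXA4, a relative of ANXA8, rose by 0.56 ± 0.11 (adjusted p = 0.0096) with overlapping arms. SCD, which makes monounsaturated fatty acids, rose by 0.31 ± 0.08 (adjusted p = 0.045), and LPIN1, a phosphatidate phosphatase, by 0.29 ± 0.07 (adjusted p = 0.037), with calls lost in 11 and 9 of the 12 left-out fits (adjusted p at most 0.0952 and 0.0853). None of 16 sterol genes was called. CDKN2D, an inhibitor of cyclin-dependent kinases, rose by 0.39 ± 0.08 (adjusted p = 0.016), while its other probe had a change of 0.03 and the mean of both an adjusted p of 0.395. CDKN1A, another such inhibitor, had a change of -0.07 ± 0.10. HMOX1, heme oxygenase, fell by 0.39 ± 0.09 (adjusted p = 0.037), a call lost in 8 of the 12 left-out fits (adjusted p at most 0.0853), and the metallothionein MT1F rose by 0.33 ± 0.07 (adjusted p = 0.0178).

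Among 11 T and NK cell markers, NKG7, a protein of cytotoxic granules, rose by 0.58 ± 0.10 (adjusted p = 0.0066) and the granule protease gene GZMB fell by 0.51 ± 0.11 (adjusted p = 0.0178). Both were dim, and their changes were 0.32 and -0.31 without background correction. No other gene of the 11 was called, beside 2.6% of all genes called higher and 1.15% called lower. The summed signal of the 11 genes, mostly that of CD2 and PRF1, was 25152 to 27911 without and 27565 to 30416 with sorafenib, and the ranges overlapped. Summed signals were 2180 to 2927 and 2632 to 4020 for 6 B cell markers and 2159 to 2761 and 2425 to 2802 for 8 myeloid markers, with overlap again and 0 genes called in either list. The part of other cell types in the results was not tested. Of the 37 lists, 12 had members called higher and none lower, 9 the reverse, 3 both and 13 none, among them oxidative phosphorylation, lysosome genes, antigen presentation, p53 targets and the 12 housekeeping genes.

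The other terms of the design gave 0 calls by limma. For the interaction, which asks whether the sorafenib effect differs without and with perifosine, no adjusted p was below 0.381, although 1033 genes passed 0.05 without adjustment. Among the 375 genes called in 6 against 6 arrays alone, 2 had an unadjusted interaction p under 0.05. Among all 510 called genes 22 had one, against 1033 of all 13595 genes. The choice of these sets disfavours genes whose effect differs between the backgrounds. The low counts are therefore no support for equal effects. An interaction is estimated with a median standard error of 0.204, and a p above the threshold does not show that the effects are equal. For perifosine over both sorafenib backgrounds no adjusted p was below 1.0 after rounding. Of the 13595 genes, 409 passed 0.05 without adjustment, which is fewer than this threshold gives by chance alone.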

How the data were processed

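Illumina bead arrays were hybridised with RNA of HDLM-2 cells, per the labels' protocols. The deposited table of processed intensity was used, in linear units. The submitters' processing notes name BeadStudio without a version, and the sources used here do not state how the authors normalized. Once sorted, the deposited intensities differed between arrays by 1.09% at most, so the arrays already had a common distribution. Another deposited table holds non-normalized signal. It was left out, because its 24 columns match no sample label.

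A plan to use detection p-values gave way to its fallback, which was normexp background correction (saddle point, offset 16), quantile normalization and log2. A probe was kept if, on at least 3 of 12 arrays, it exceeded the upper 5% point of a normal curve set on the dim probes. This kept 25251 of 48803 probes. The platform annotation gave 1 symbol for 28098 probes, several for 13 and listed 20692 not at all, and 28059 probes took the RefSeq name through an Entrez match. A gene was read from its passing probe of highest mean. More than 1 probe passed for 3672 genes.

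limma 3.58.1 (R 4.3.3) fitted a perifosine and a sorafenib term to all 12 arrays. The total degrees of freedom were 14.1, and the residual SD had a median of 0.184. A fit with a mean per group gave the smaller comparisons and the interaction. Benjamini-Hochberg adjustment ran over 13595 genes. The number of arrays limits the precision. The fits were tested on simulated data. Deviations of same-letter samples correlated from -0.24 to 0.205 over 18 pairs, so the letters do not pair the samples. The members and gene lists were chosen with earlier results of these data known. Named genes are the 12 moderate rises and falls of smallest p, the 5 largest rises and falls, up to 4 called members of each list by p, and markers and drug targets whatever their value, without unnamed loci and without a withheld item that is not reported here. Further list members are given as values and were chosen after their values were seen. Alternatives changed the background correction, filter, probe summary, normalization, model terms, array weights, mean-variance trend and arrays included.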

Additional observations from a re-analysis of the deposited data

Results flagged for a closer look

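Of 190 tests of 95 named genes in each arm of 6 arrays, 10 had 1 array far from the other 5, and chance alone gives about 1 in 20. In the arm without sorafenib, CAT had a log2 signal of 11.91 on control replicate B against 12.19 to 12.32 on the others, and MT1F had 14.09 on control replicate C against 14.25 to 14.32. CDKN1A had 10.88 on perifosine replicate B against 11.19 to 11.28, and TRIB3 had 8.88 on the same array against 9.41 to 9.63. CEBPG had 13.43 on perifosine replicate A against 13.08 to 13.21, and HMOX1 had 10.67 on perifosine replicate C against 10.25 to 10.40.

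In the arm with sorafenib, NMT2 had 10.33 on sorafenib replicate C against 10.15 to 10.20, and SLC1A5 had 12.43 on the same array against 12.05 to 12.15. TNFRSF9 had 11.77 on sorafenib replicate B against 12.04 to 12.17, and CCT4 had 9.45 on combination replicate A against 9.68 to 9.77. The calls of CAT, MT1F, CEBPG, NMT2, TNFRSF9 and CCT4 held without the array in question, as they did in all 12 fits with 1 array left out. SLC1A5 was still called without sorafenib replicate C (adjusted p = 0.039), and HMOX1 was not without perifosine replicate C (adjusted p = 0.0803). CDKN1A and TRIB3 were not called with all arrays. Probes that carry no single gene symbol were tested apart, and 33 of 6735 of them were called with sorafenib, 25 higher and 8 lower.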

How the results depend on the processing

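With 1 array left out, the count of genes called in 6 against 6 arrays ran from 281 to 689, that of sorafenib against control from 37 to 171, that of the combination against perifosine from 24 to 99, and that of genes resolved by 6 against 6 arrays alone from 193 to 528. Arms of 2 arrays in these fits are assumed to vary like the other groups. Without a filter on dim probes the 4 counts were 255, 40, 41 and 201, with more genes tested. With array weights the main count was 835 and those of the smaller comparisons 241 and 289. A mean-variance trend gave 230 and 250, and no background correction 251 and 247, for the smaller comparisons, and an offset of 50 gave 170 for sorafenib against control. With the replicate letter as a block (replicate block) the smaller comparisons called 49 and 45 genes in place of 112 and 97, the main comparison 361 in place of 510 and 6 against 6 arrays alone 295 in place of 375. The letters do not pair the samples. Other settings kept the 4 counts within 1.5 times, and the cause of these moves was not tested. The interaction and the perifosine term gave 0 calls under every setting tried. Of 85 called genes named by rule, 74 held in all 12 fits with 1 array left out, and 0 changed direction under any setting. Genes near background, such as LOXHD1, KRTAP1-5 and RET, are limited by signal over background, and changes of dim genes are smaller without background correction.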
